A study of Mus musculus with 4 samples.

Results

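The microRNAs (miRNAs) miR-143 and miR-145, short RNAs that repress messenger RNAs, were followed in synovium, the lining tissue of joints, of mice before and at the peak of serum-transfer arthritis. They were chosen by assay name on the raw PCR sheets, which gave 3 of the 750 miRNA assays: a mouse-named and a human-named assay of miR-143 (mmu-miR-143 and hsa-miR-143) and a mouse-named assay of miR-145 (mmu-miR-145). Star strands were left out by the rule, and the star strand of miR-145 is given once below. All 3 assays gave a Ct in all 8 of their wells, so each passed the requirement of a Ct in all 4 pools.

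The tissue came from the region of the tibiotalar (ankle) joint of C57BL/6J mice. In the model, serum from arthritic K/BxN mice is given to recipients and brings on joint inflammation. The non-arthritic group was 2 pools taken at day 0, each of synovium from 3 mice, and the arthritic group was 2 pools taken at day 10, each from 10 mice. No transgene, deletion or drug is named for either group, and the groups differ in the number of mice pooled as well as in the disease. TaqMan real-time PCR on nanolitre chips read every pool in 2 technical wells. Each well yields a Ct, the number of PCR cycles needed to bring the signal past a set threshold. A higher Ct stands for less RNA, and 1 cycle for about a doubling if amplification is complete.

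miR-143 and miR-145 are processed from neighbouring hairpins of a single primary transcript. In the RefSeq gene table of assembly GRCm38.p6 the mouse genes Mir143 and Mir145a lay inside the long noncoding RNA gene Carmn, with 0 other genes between them. Both miRNAs are known as abundant miRNAs of smooth muscle and pericytes, the contractile cells of vessel walls, where serum response factor and myocardin drive their transcription. They hold smooth muscle in its contractile state, in part by repressing KLF4, KLF5 and ELK1, and are low in epithelial and blood cells. The chips hold no assay of a smooth muscle protein, so the cell type behind the values was not checked by an independent marker.

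The number of the 750 assays with a Ct was 294 and 287 in the day 0 pools and 271 and 223 in the day 10 pools. Arthritic pool 2 stood apart, with the fewest Cts, a median panel A Ct of 15.9 against 12.5 to 12.8 in the other pools, and a duplicate SD of 1.47 cycles against 0.761 to 1.04. On chip A3, which carries mmu-miR-143, the second listed well of this pool gave a Ct for 24 assays and the first for 36. The members, and the listed miRNAs that passed, are therefore also given without it. A test without 1 pool sets a lone pool against 2 and takes each assay's own spread from the remaining pair alone. Its adjusted p is no more than a description, and a pass there supports no call.

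miR-145 gave one of the earliest signals of the resting joint and came later in both arthritic pools. Its raw Ct in the 2 wells was 5.92 and 6.33 in non-arthritic pool 1 and 5.83 and 6.07 in non-arthritic pool 2. It was 8.99 and 8.60 in arthritic pool 1 and 10.44 and 10.48 in arthritic pool 2. Every arthritic well was thus later than every non-arthritic well, and the wells of a pool differed by at most 0.407 cycles. Counted from the lowest Ct among the assays with a Ct on panel A, miR-145 ranked 9 of 178 and 10 of 175 in the non-arthritic pools, and 34 of 162 and 27 of 144 in the arthritic pools. These ranks need no reference RNA, though the assays of the panel may amplify with unequal efficiency.

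The human-named assay of miR-143 had the same order of groups. Its raw Ct was 8.71 and 8.92 in non-arthritic pool 1, 8.60 and 9.09 in non-arthritic pool 2, 12.07 and 10.76 in arthritic pool 1, and 13.48 and 14.74 in arthritic pool 2. The groups did not overlap, and the 2 non-arthritic pools, with means of 8.82 and 8.85, were closer to each other than the wells within either. In the arthritic pools the wells lay 1.31 and 1.27 cycles apart, wider than the median gap of 0.516 and 0.484 cycles on panel B in those pools. On panel B its rank from the lowest Ct went from 10 of 116 and 10 of 112 to 13 of 109 and 15 of 79.

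The mouse-named assay of miR-143 gave later signals throughout. Its raw Ct was 11.18 and 11.42 in non-arthritic pool 1, 10.57 and 10.85 in non-arthritic pool 2, and 13.65 and 13.90 in arthritic pool 1. In arthritic pool 2 the wells gave 18.26 and 20.64, a gap of 2.38 cycles. The rank on panel A was 51 of 178 and 50 of 175 in the non-arthritic pools, and 77 of 162 and 100 of 144 in the arthritic pools. Both arthritic pools lay above the non-arthritic ones, and arthritic pool 2 lay well above arthritic pool 1.

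**Figure D1:**
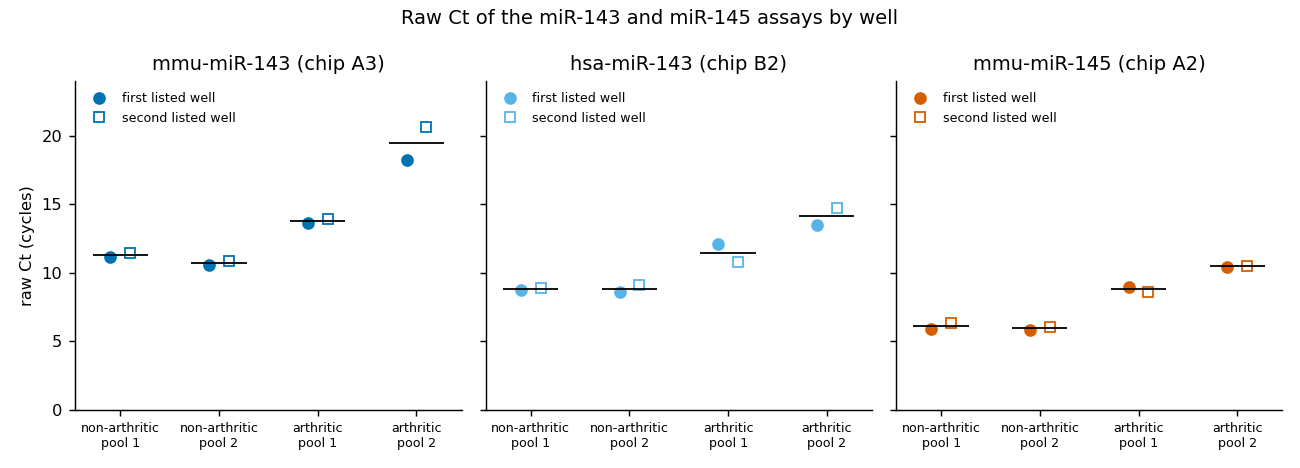
Raw Ct in cycles (vertical axis; a higher Ct is less RNA) of the 3 assays in the 4 pools, with filled circles for the first and open squares for the second listed well and a line at their mean. Each arthritic well lies above each non-arthritic well of the same assay, and the wells of mmu-miR-143 in arthritic pool 2 lie 2.38 cycles apart.

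The only other assay of either hairpin on the chips was the star strand of miR-145 (mmu-miR-145#), the arm that is usually degraded. It gave a Ct in 0 of its 8 wells. The highest Ct recorded in the series was 26.997, so this says only that no signal was read, in a tissue where the guide strand was among the first to appear.

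For the comparison between groups, the level of an assay was defined as the median Ct of its panel in that pool minus its own Ct, in log2 units, with the median taken over the assays with a Ct in all 4 pools. Groups were compared in a single limma fit over the 209 assays with a Ct in all 4 pools, with Benjamini-Hochberg adjustment over all 209. Of these, 45 passed an adjusted p of 0.05, or 21.5%, with 25 (12%) lower and 20 (9.57%) higher in the arthritic pools. The 2 pools per group are the labels' biological replicates. In bulk tissue, fewer smooth muscle cells and less miRNA per cell cannot be told apart.

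By this measure mmu-miR-143 fell. Its level was 1.34 and 2.11 in the non-arthritic pools, and -1.24 and -3.55 in arthritic pools 1 and 2. The level was thus above the panel median before arthritis and below it in both arthritic pools. The mean went from 1.72 ± 0.55 to -2.39 ± 1.63 (SD over 2 pools). This difference of -4.12 ± 1.00 log2 units (SE) had a 95% confidence interval from -6.56 to -1.67 and equals a 17.3-fold lower level (limma adjusted p = 0.0373). It ranked 19 of 209 from the lowest difference. Without arthritic pool 2 the difference was -2.43, and without arthritic pool 1 it was -5.22. The non-arthritic pools differed by 0.77 in level and the arthritic pools by 2.31. Without non-arthritic pool 1 or pool 2 the call was lost, as were all calls, at limma adjusted p = 0.249 and 0.401 for mmu-miR-143. There the adjusted test called 0 assays, and 42 and 25 had an unadjusted p under 0.05.

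The level of hsa-miR-143 was 6.72 and 6.80 in the non-arthritic pools, and 5.10 and 4.31 in arthritic pools 1 and 2. The groups did not overlap, with 1.62 log2 units between the nearest pools against a difference of 0.084 between the non-arthritic pools and 0.79 between the arthritic pools. The difference of -2.06 ± 0.75 log2 units (SE, 95% confidence interval from -3.89 to -0.22), 4.16-fold lower, did not pass (limma adjusted p = 0.0936). It was -1.88 without arthritic pool 2. Without arthritic pool 1, with the pool that stood apart as the whole arthritic group, it was -2.45.

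The level of miR-145 was 6.51 and 6.86 in the non-arthritic pools, and 3.74 and 5.44 in arthritic pools 1 and 2. Here arthritic pool 1 was the lower, the reverse of the order of both miR-143 assays. The difference of -2.09 ± 0.87 log2 units (SE, 95% confidence interval from -4.22 to 0.038), 4.27-fold lower, did not pass (limma adjusted p = 0.117). It was -2.41 without arthritic pool 2 (limma adjusted p = 0.0381) and -1.20 without arthritic pool 1 (limma adjusted p = 0.141), each with the spread of the non-arthritic pair standing for both groups.

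All 3 assays thus had both arthritic pools below both non-arthritic pools, as 32.1% of the 209 assays did (71.3% had groups that did not overlap in either direction), and 1 of the 3 passed. A difference below 0 was found for 47.4% of the assays, and one of -2 log2 units or lower for 25.8%. The median difference was 0.19 over all 209 assays, 0.29 over the 134 of panel A and -0.34 over the 75 of panel B. The differences of hsa-miR-143 and miR-145 ranked 52 and 49 of 209 from the lowest, close to the lower quartile of -2.03.

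**Figure D2:**
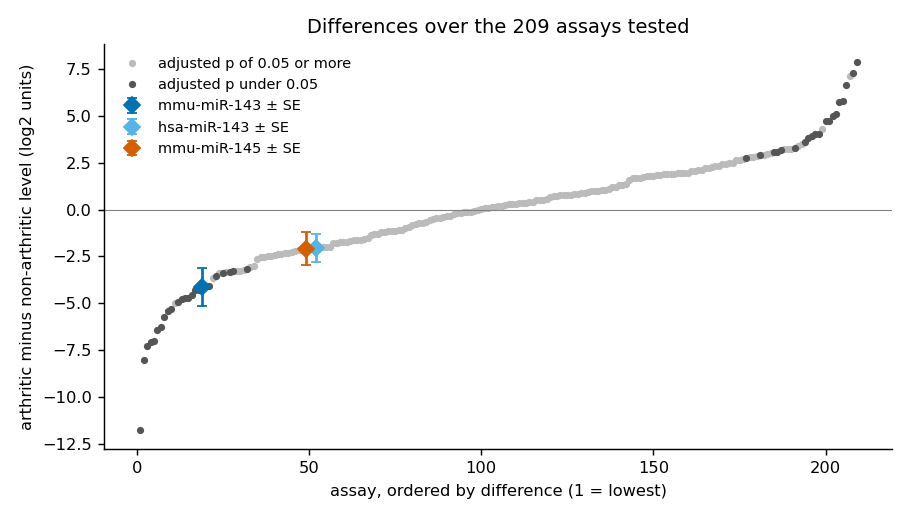
Difference in level between arthritic and non-arthritic pools in log2 units (vertical axis) for the 209 assays tested, ordered from the lowest (horizontal axis), with dark points for a limma adjusted p under 0.05 and diamonds with SE for the 3 assays. mmu-miR-143 at -4.12 ranks 19 of 209, and hsa-miR-143 and mmu-miR-145, at -2.06 and -2.09, lie close together at ranks 52 and 49.

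Since the miRNAs share a transcript, the difference between their assays within a pool was examined. The mouse-named assays of miR-143 and miR-145 are both on panel A, so the panel median cancels in this difference. The level of mmu-miR-143 minus that of miR-145 was -5.17 in non-arthritic pool 1, -4.75 in pool 2, -4.98 for arthritic pool 1 and -8.99 for arthritic pool 2. In 3 of the 4 pools it stayed within 0.417 log2 units, and arthritic pool 2 lay apart. With only the first listed well of mmu-miR-143 in that pool the value was -7.80, and with only the second it was -10.2. The mean was -4.96 ± 0.29 in the non-arthritic and -6.99 ± 2.83 in the arthritic pools (SD over 2 pools). The change of -2.02 did not pass (exact permutation test, two-sided p = 0.667), and it was -0.021 without arthritic pool 2.

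The assays of miR-143 by mouse and human name differed in level, as mmu-miR-143 minus hsa-miR-143, by -5.38 and -4.69 at day 0, by -6.34 for arthritic pool 1 and by -7.85 for arthritic pool 2. The arthritic pools were thus both below the non-arthritic ones, by -2.06 on average (exact permutation test, two-sided p = 0.33, the smallest that 2 pools against 2 allow). Without arthritic pool 2 that difference was -0.55. The assays are on different panels, so each was set against its own panel median.

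The assays hsa-miR-143 and mmu-miR-145 are on panels B and A, so each was again set against its own panel median. Their mean raw Ct in the non-arthritic pools was 8.83 and 6.04, so a level difference near 0 does not mean equal raw Ct. The level of hsa-miR-143 minus that of miR-145 was 0.21 and -0.063 in the non-arthritic pools, and 1.35 and -1.14 in arthritic pools 1 and 2. The arthritic values lay on either side of the non-arthritic ones, and the mean difference between groups was 0.036 with an SD of 1.76 between the arthritic pools (exact permutation test, two-sided p = 1). It turned to -0.34 with raw Ct, -0.30 with the median per chip and -1.26 without arthritic pool 1. These were 3 pairs compared, and the Benjamini-Hochberg adjusted p was 1 for each. With 2 pools per group these tests could not pass, and they do not show that the assays moved alike.

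**Figure D3:**
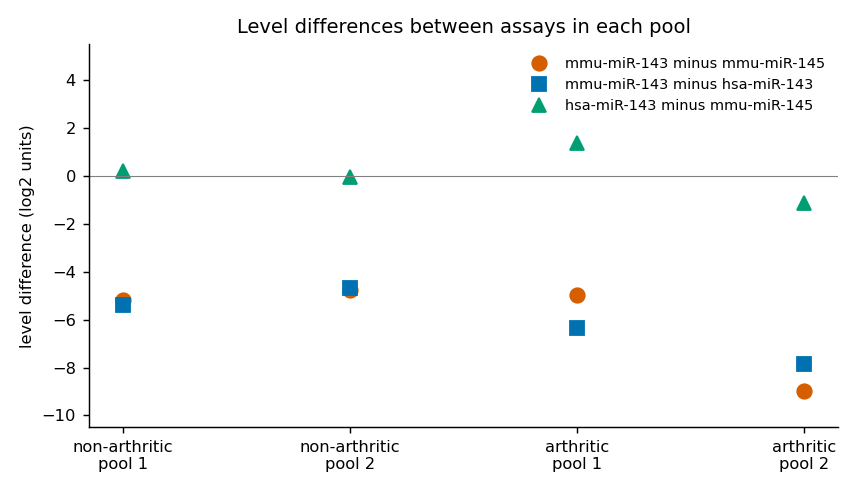
Difference in level between 2 assays of the same pool in log2 units (vertical axis) for the 3 pairs in the 4 pools. mmu-miR-143 minus mmu-miR-145 lies between -5.17 and -4.75 in 3 pools and at -8.99 in arthritic pool 2. hsa-miR-143 minus mmu-miR-145, with each set against the median of a different panel, scatters around 0, which does not mean equal raw Ct.

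In arthritic pool 2 the wells of chip A3 stood apart from those of the other chips. The second listed well had the higher Ct in 24 of 24 assays with a Ct in both, by a median of 4.57 cycles. In the other 31 combinations of chip and pool the median of this gap ran from -1.89 to 0.80 cycles. The gap of mmu-miR-143, at 2.38 cycles, was 23rd of the 24 counted from the largest. Without the second listed well the difference of mmu-miR-143 between groups was -3.79 and passed (limma adjusted p = 0.0423). With the median of each chip in place of that of the panel it was -3.26 and did not pass (limma adjusted p = 0.0548). The assays of miR-145 and hsa-miR-143 are on chips A2 and B2, where the median gap in this pool was 0.22 and 0.20 cycles.

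**Figure D4:**
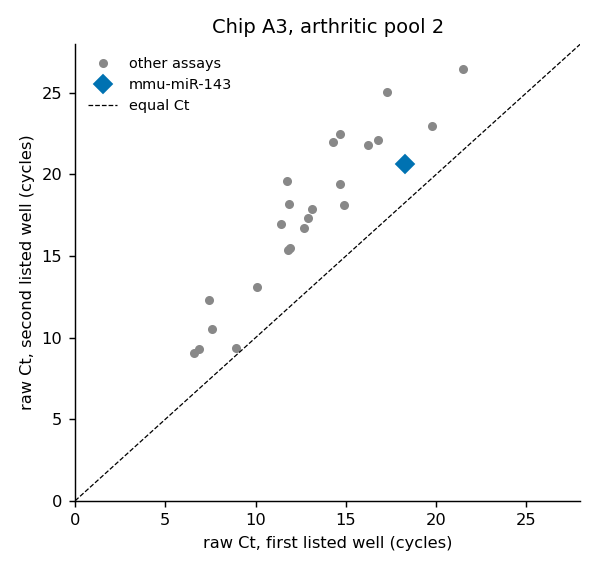
Raw Ct in cycles of the second listed well (vertical axis) against the first (horizontal axis) for the 24 assays of chip A3 that were read in both wells in arthritic pool 2, with a dashed line at equal Ct. All 24 lie above the line, and mmu-miR-143, the blue diamond, lies nearer to it than all but 1 other.

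The size of the differences depended on the reference. U6, a small nuclear RNA, had a panel A Ct of 7.61 and 6.56 in the non-arthritic pools and of 5.78 and 5.67 in arthritic pools 1 and 2, earlier in the arthritic pools. On panel B, which carries hsa-miR-143, its Ct was 5.55 and 4.59 against 4.87 and 5.07, and the groups overlapped. snoRNA202, a small nucleolar RNA, was later in the arthritic pools, as the 3 assays were. Its Ct was 9.21 and 8.19 against 9.41 and 9.45 on panel A. On panel B it was 7.88 and 6.13 against 9.34 and 9.96. snoRNA135 went the other way on panel A and was earlier in both arthritic pools. Its mean Ct there was 22.23 in the non-arthritic and 19.11 in the arthritic pools. On panel B the groups overlapped for snoRNA135, at 17.57 and 17.56 against 16.70 and 18.13. With U6 alone the median difference of all 209 assays was -2.51, and it was -1.91 with snoRNA135 and snoRNA202, -2.17 with the 3 control RNAs and -1.43 with raw Ct. Relative to that median the difference of mmu-miR-143 ran from -4.90 to -3.63 over the 7 other normalizations, that of miR-145 from -2.87 to -2.16 and that of hsa-miR-143 from -2.80 to -0.78. Each of the 3 assays was lower in the arthritic pools under all 20 alternatives run. mmu-miR-143 passed under 3 of the 7 other normalizations (the control-RNA references), miR-145 under 4 (these and quantile normalization) and hsa-miR-143 under 1 (quantile normalization). With the control-RNA references 47 to 54 of the 209 assays fell and 1 to 4 rose, so a pass there goes with a shift of most assays. With quantile normalization 27 fell and 27 rose.

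**Figure D5:**
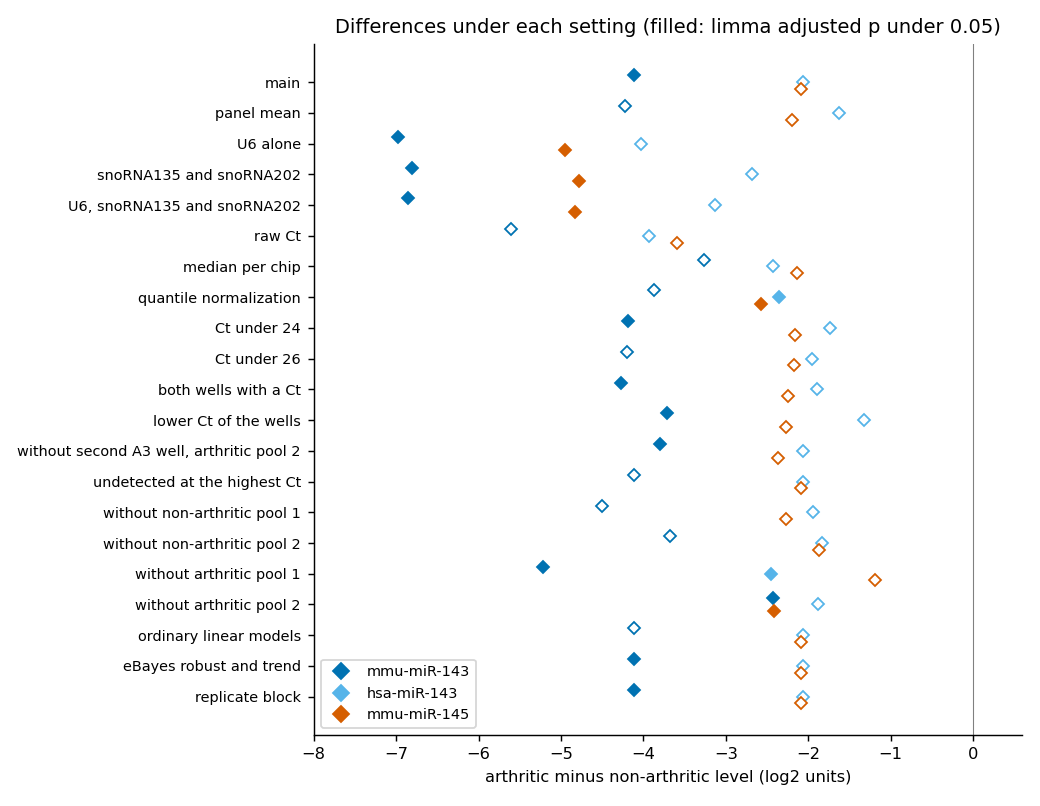
Difference in level between arthritic and non-arthritic pools in log2 units (horizontal axis) for the 3 assays under the reported setting (main) and 20 alternatives (rows), filled where the limma adjusted p was under 0.05 (without 1 pool, with the spread of a single pair of pools). Every point lies below 0, and the control-RNA references move all 3 assays further down.

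The authors' deposited table lists the 3 assays in the same direction. It gives group averages of 12.1 and 8.29 on a log2 scale for mmu-miR-143, 14.6 and 11.3 for hsa-miR-143 and 17.6 and 15.3 for mmu-miR-145, non-arthritic first. The differences in the authors' deposited table were -3.81, -3.30 and -2.36, or ratios of 0.0715, 0.102 and 0.195. The sources used here do not give its normalization, and in it the miR-143 assays were closer to each other than in the fit above.

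The assays whose levels ran most like those of each member were named by the root mean square difference of levels centred on each assay's mean, over the 4 pools. The likeness is a description. For miR-145 the nearest were miR-182, of epithelial and sensory cells, at 0.22 log2 units, miR-150, of mature lymphocytes, at 0.39, the miR-29 family member miR-29a at 0.41, miR-342-3p at 0.41 and the endothelial miR-126-3p at 0.42. The median over all other assays was 1.63. miR-126-3p, which sits in the endothelium that smooth muscle surrounds, had levels of 9.10 and 9.49 in the non-arthritic pools and 6.63 and 7.20 in arthritic pools 1 and 2. Like miR-145 it was lowest in arthritic pool 1, and its difference of -2.38 ± 0.74 (SE) did not pass (limma adjusted p = 0.0686). The other endothelial assay, miR-126-5p, had the reverse order and was lowest in arthritic pool 2. Its levels were 2.26 and 3.06 in the non-arthritic pools and 1.87 and -0.59 in arthritic pools 1 and 2.

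For mmu-miR-143 the nearest were the human-named assay of the miR-99b star strand at 0.33 log2 units, the star strand of miR-872 at 0.44, miR-101b at 0.44, miR-574-3p at 0.51 and the human-named assay of miR-30e-3p at 0.56, against a median of 2.47 over all other assays. miR-574-3p, also on chip A3, had levels of 0.93 and 0.56 in the non-arthritic pools and -2.70 and -5.26 in arthritic pools 1 and 2. For hsa-miR-143 the nearest were a star strand of miR-24-2 at 0.15, the rat-named assay of miR-196c at 0.25, the human-named assay of miR-140-3p at 0.25, miR-185 at 0.30 and miR-30d at 0.32, against a median of 1.61. None of the 3 members was among the 5 nearest of another. From mmu-miR-143, the human-named assay of the same miRNA was 24th of 208 and miR-145 was 59th.

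Of the 15 nearest assays, 3 have a mouse name that gives the arm and matched a RefSeq mature miRNA of GRCm38.p6, in the case of miR-126-3p under its newer name mmu-miR-126a-3p. Their sequences are shown, 5′ to 3′, since these are the miRNAs that ran closest to the members and can be named by arm. Capitals mark the seed, bases 2 to 8, which pairs with targets.
mmu-miR-126-3p (chr2:26591402-26591423, + strand): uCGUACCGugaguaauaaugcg
mmu-miR-342-3p (chr12:108658680-108658702, + strand): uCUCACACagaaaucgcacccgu
mmu-miR-574-3p (chr5:64970364-64970385, + strand): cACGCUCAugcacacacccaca
No 2 of the 3 share a seed. The first pair were named beside miR-145 and the last beside mmu-miR-143.

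Other miRNAs that the literature ties to the state of smooth muscle formed a list of 20, all with an assay. Of the 18 tested, 5 fell, 1 rose and 12 did not pass, where 12% of all 209 assays fell and 9.57% rose. The median difference was -0.71 against 0.19 over all 209 assays. miR-222, which with miR-221 favours smooth muscle growth over contraction, fell by 8.02 ± 0.86 log2 units (SE), from 2.65 ± 0.14 to -5.37 ± 1.16 (SD over 2 pools; limma adjusted p = 0.00421). miR-221, encoded beside miR-222, had a difference of 2.25 ± 0.77 (SE, limma adjusted p = 0.0814) and did not pass. Its sign was negative under 3 of the 7 other normalizations. miR-222 and miR-221 are both on chip A3. In arthritic pool 2 the wells of miR-221 gave 12.67 and 16.73, and miR-222 was not among the 24 assays read in both wells.

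miR-133a, a muscle miRNA that restrains smooth muscle proliferation, fell by 7.07 ± 0.78 log2 units (SE). It is also on chip A3, and its wells in arthritic pool 2 gave 11.83 and 18.22. miR-204, described as restraining smooth muscle calcification and growth, fell by 5.74 ± 0.86, miR-146a, which damps inflammatory signalling, by 4.30 ± 0.79 and miR-23b by 3.33 ± 0.74. The 5 falls kept their sign under all 7 other normalizations. Without arthritic pool 2 the differences were -6.67 for miR-222, -6.15 for miR-133a, -5.97 for miR-204, -4.29 for miR-146a and -3.13 for miR-23b. miR-29b, whose targets include collagens and elastin, rose by 2.90 ± 0.77 (SE, limma adjusted p = 0.0466), from -5.93 ± 0.53 to -3.03 ± 0.49 (SD over 2 pools). Its lowest difference under the other normalizations was 0.045 and it passed under 2 of the 7. It was 3.09 without arthritic pool 2.

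The listed miRNAs with the highest non-arthritic levels, each set against its own panel median, were miR-24, miR-206, miR-133a and miR-146a. Of these miR-206 is on panel B, where the median Ct of the non-arthritic pools was 15.5 and 15.6, against 12.6 and 12.8 on panel A. The raw Ct of miR-206 in those pools was 7.33 and 5.95, and that of miR-26a, on panel A, was 6.80 and 6.18. miR-24, linked to the synthetic state of smooth muscle, had levels of 9.08 and 9.35 in the non-arthritic pools and 8.83 and 10.3 in the arthritic pools, which overlap. miR-206, of skeletal muscle, had a difference of -2.41 ± 0.87 (SE, limma adjusted p = 0.0931) and did not pass. miR-1 and miR-133b were not tested, since they were read in each of the non-arthritic pools and had no Ct in any arthritic well. Their non-arthritic signals were late, with a Ct of 21.49 and 16.97 for miR-1 and of 22.60 and 20.75 for miR-133b. The highest Ct of the series was 26.997.

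Lists of markers of other cell types were set beside the 3 assays. For the skeletal and heart muscle list of 5, the summed level of the 4 panel A assays was 7.93 and 8.72 in the non-arthritic pools, where 3 gave a Ct. It was 1.64 and 0.87 in arthritic pools 1 and 2, where miR-133a alone did. The level of miR-133a by itself was 7.93 and 8.72 in the non-arthritic pools, so the sum repeats that assay. miR-208, of heart muscle, gave no Ct in any pool, and miR-206 is on panel B. Both tested members of that list had a difference below 0, and miR-133a passed. For the endothelial list the summed level was 9.12 and 9.51 in the non-arthritic pools and 6.68 and 7.21 in arthritic pools 1 and 2. That is nearly the level of miR-126-3p by itself, at 9.10 and 9.49 against 6.63 and 7.20. Both members of the endothelial list had a difference below 0 and neither passed the limma test, 1 with an unadjusted p under 0.05. The part of skeletal muscle or endothelium in the values of miR-143 and miR-145 was not tested.

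The fibroblast and mesenchymal list of 6, of which 5 were tested, had a summed panel A level of 3.98 and 2.93 in the non-arthritic and 5.13 and 5.85 in the arthritic pools. Most of that sum was miR-214, at 3.70 and 2.39 against 4.89 and 5.84. Of the 5, 3 had a difference above 0, and 0 passed the limma test, 1 with an unadjusted p under 0.05. The positive differences of miR-214 and miR-10a turned negative under 3 of the 7 other normalizations and that of miR-199b under 2 of them. The summed level of the myeloid list was 4.35 and 4.08 against 5.36 and 6.76. Of its 2 tested members, miR-142-3p rose by 3.83 ± 0.97 (SE, limma adjusted p = 0.0402), but passed under 0 of the 7 other normalizations. Without arthritic pool 2 the difference of miR-142-3p was 5.49. The other, miR-223, had levels of 4.34 and 4.07 against 5.19 and 6.75, close to the summed levels. Its difference of 1.77 ± 0.85 (SE) did not pass (limma adjusted p = 0.150). It kept its sign under 4 of the 7 other normalizations. The lymphoid, adipose, erythroid and cartilage lists had 0 of 8 tested members past the threshold of the limma test. In that order, 2, 0, 0 and 1 had an unadjusted limma p under 0.05, and the median differences were 0.22, -2.13, -0.78 and 0.075. The lymphoid median lay between opposite values, -1.99 for miR-150 and 2.43 for miR-181a. So did that of cartilage, between -1.78 for miR-140 and 1.93 for miR-455. The differences of miR-181a and miR-455 kept their sign under 4 of the 7 other normalizations. Adipose differences ran from -2.24 to 0.34. Of the erythroid list, miR-144 gave no Ct in any pool, and miR-486 had a Ct of 14.8 and 13.6 in the non-arthritic pools and none in either arthritic pool.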

How the data were processed

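TaqMan PCR of 500 ng of RNA per sample was read in 4 pools of synovium on 8 chips of panels A and B, per the labels' protocols. The authors deposited raw Ct values, with 999 in wells without a signal; the sources used here do not give the threshold settings. The authors also deposited log2 group averages with their differences, the fold ratio, and a signed fold score, which were used only for comparison (the score not at all). A pool's Ct was the mean over its wells with a Ct. Any Ct under 35 counted as detected, as in 2083 of 6096 wells. The fit used limma 3.58.1 under R 4.3.3 (functions lmFit and eBayes; two-sided tests; Benjamini-Hochberg, 0.05), control assays left out, after a test on simulated data. The prior had 4.02 degrees of freedom beside 2 residual ones. The 3 assays, the miRNA lists and the alternatives were chosen with earlier results of these data known. Named miRNAs were the members, other arms of their hairpins, the listed miRNAs that passed or had the 4 highest non-arthritic levels, cell type markers, and the 5 assays most like each member. A listed miRNA was matched to the mouse-named, otherwise the human-named assay, that of panel A where there were several. miR-221 was named after its values were seen. Precision was limited by 2 pools per group, with a median SE of 0.87 log2 units over the 209 assays. Figures were drawn with matplotlib 3.10.9.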

Additional observations from a re-analysis of the deposited data

How the results depend on the processing

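The 3 assays kept their sign under all 20 alternatives, from -6.97 to -2.43 for mmu-miR-143, -4.03 to -1.33 for hsa-miR-143 and -4.95 to -1.20 for miR-145. The call of mmu-miR-143 was lost with the panel mean (-4.23), raw Ct (-5.61), the median per chip (-3.26) and quantile normalization (-3.87). It was lost with a Ct limit of 26 (-4.20), undetected values at the highest Ct (-4.12, 325 assays tested) and ordinary linear models in place of moderation (-4.12). It was also lost without non-arthritic pool 1 (-4.50) and without non-arthritic pool 2 (-3.68). The call held under 11 of 20, 2 of them without an arthritic pool. On the same count miR-145 passed under 5 and hsa-miR-143 under 2. Each of these counts includes a fit without an arthritic pool, which supports no call. With all 4 pools in the fit, miR-145 passed with U6 (-4.95), the snoRNAs (-4.78), these 3 control RNAs (-4.84) and quantile normalization (-2.57). There hsa-miR-143 passed with quantile normalization (-2.36). Without 1 pool the difference ran from -5.22 to -2.43 for mmu-miR-143, between -2.45 and -1.83 for hsa-miR-143 and between -2.41 and -1.20 for miR-145. The count of 45 changed assays was 25 with the panel mean, 8 with raw Ct (65 at an unadjusted p under 0.05), 25 with undetected values at the highest Ct and 0 with ordinary linear models (55 at an unadjusted p under 0.05), and from 0 to 121 without 1 pool. With the 3 control-RNA references 1 to 4 rose and 47 to 54 fell. Of the differences between assays, only that of hsa-miR-143 minus miR-145 changed sign, to -0.34 with raw Ct, -0.30 with the median per chip and -1.26 without arthritic pool 1; without 1 pool it ran from -1.26 to 0.53. The cause was not tested. The pool numbers are shared by the groups, and a replicate block gave 66 changed assays, with mmu-miR-143 passing and the other 2 not (limma adjusted p = 0.00260, 0.151 and 0.145 for mmu-miR-143, hsa-miR-143 and miR-145). The deviations of same-numbered pools correlated at 0.0738 over the assays, and nothing in the labels says that the numbers pair the pools. All 3 assays had Cts from 5.83 to 20.64, all below the highest Ct recorded.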
